A study of Mus musculus with 10 samples.

Results

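Clusterin, the product of the mouse gene Clu, was followed through 10 primary pancreatic tumours. Clu is 1 of 55487 genes in the table of estimated counts, and it was chosen by its level: it was the most abundant transcript by counts in 7 of the 10 tumours. Its level and rank are therefore a description and were not tested. The tumours came from KPF mice on a C57BL/6J background, aged 6 to 12 weeks. The labels do not spell out the KPF alleles, the allele that recombines Grem1 or the driver of that recombination. In 5 tumours, labelled Grem1∆/∆, the mice had been given tamoxifen daily (100 mg/kg) over 5 days, starting at 5 weeks of age. The other 5 tumours, labelled Grem1wt/wt, came from mice given peanut oil alone. Genotype and tamoxifen cannot be told apart in this design. The tumours are called ∆/∆ 1 to 5 and wt/wt 1 to 5 by their replicate numbers. Each library holds polyadenylated RNA that the sample descriptions call bulk tumour, whereas the extraction protocol speaks of sorted cells. The labels do not say whether each tumour came from its own mouse, and p-values measure the spread between these 10 samples.

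Clusterin is a secreted glycoprotein that is cut into an α and a β chain held together by disulfide bonds. It acts as an extracellular chaperone that keeps unfolded proteins in solution, it binds the terminal complement complex and blocks its insertion into membranes, and it travels on lipoproteins under the name apolipoprotein J. Cells take it up through receptors of the LDL receptor family. In mouse tissues its transcript is known to be induced by injury, and it marks the revival stem cells of the damaged intestinal epithelium.

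Clu (ENSMUSG00000022037) lies on chromosome 14 of GRCm38, at chr14:65968483-65981547 on the plus strand. GENCODE M21 gives it 9 transcripts, 6 of them protein-coding. The longest, Clu-201, has 9 exons and 1810 bases. No other annotated gene overlaps it on either strand. Its nearest protein-coding neighbours are Gulo, 5239 bases away, and Scara3, 14548 bases away.

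The targeted gene did not separate the groups. Grem1, which encodes a secreted BMP antagonist, had 47.6, 110.1, 12.6, 6.83 and 23.7 counts-per-million units (CPM) in ∆/∆ tumours 1 to 5, against 15.7, 43.1, 23.0, 3.97 and 9.48 CPM in wt/wt tumours 1 to 5. The groups overlapped and the ∆/∆ tumours were not the lower ones, so the group names below are those of the labels. ∆/∆ tumour 1 stood apart from the rest on the first principal component of all genes, which held 39.9% of the variance, at -125.67 against -12.3 to 37.99 for the other 9 tumours. ∆/∆ tumour 2 held 293 CPM of Sis, an enzyme of the intestinal brush border, and no other tumour had more than 1.16 CPM. Results that rest on these libraries are given with and without them.

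Clu was very abundant in every tumour. It reached 3152, 7738, 9939, 9388 and 13032 CPM in ∆/∆ tumours 1 to 5, against 13424, 14181, 13107, 14897 and 15663 CPM in wt/wt tumours 1 to 5. The mean was 8649.8 ± 3622 CPM in ∆/∆ tumours and 14255 ± 1049.9 CPM in wt/wt tumours (SD, n = 5 each). The wt/wt tumours lay close together, with a coefficient of variation of 7.37%, whereas that of the ∆/∆ tumours was 41.9%. These values rest on 35432 to 198224 estimated counts of Clu per ∆/∆ library and on 155360 to 244095 per wt/wt library. Counting error was at most 0.531% of a value.

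**Figure D1:**
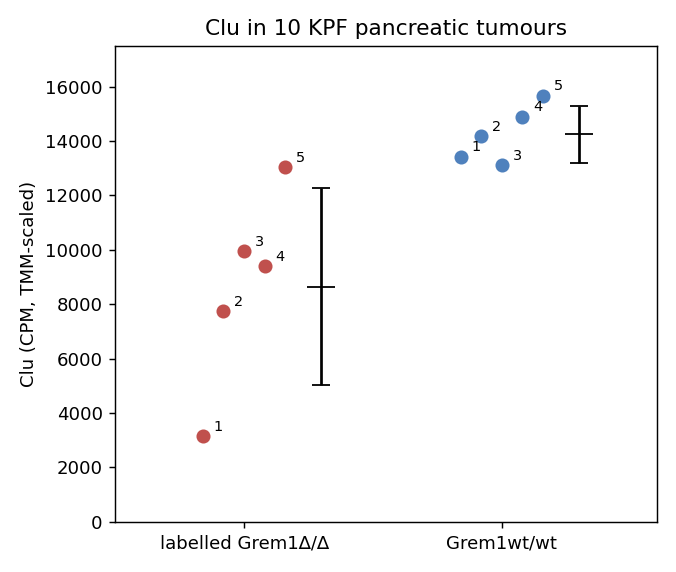
Clu in CPM (TMM-scaled, linear axis starting at 0) in each tumour, with the replicate number beside each point and the mean and SD of each group as a bar. The ∆/∆ tumours run from 3152 to 13032 CPM and the wt/wt tumours from 13107 to 15663 CPM, and ∆/∆ tumour 5 reaches almost to the lowest wt/wt tumour.

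Clu took 0.306%, 0.768%, 1.01%, 0.947% and 1.303% of all estimated counts in ∆/∆ tumours 1 to 5. In wt/wt tumours 1 to 5 it took 1.36%, 1.44%, 1.31%, 1.47% and 1.53%. By counts it was the top gene in 2 of 5 ∆/∆ tumours and in 5 of 5 wt/wt tumours. It was 8th in ∆/∆ tumour 1, where Eef1a1, a translation elongation factor, led. It was 2nd behind mt-Co1, a mitochondrially encoded cytochrome oxidase subunit, in ∆/∆ tumour 2. In ∆/∆ tumour 4 it was 2nd behind Fn1, which encodes fibronectin, at 0.983 times its count. The lead of Clu over the gene in second place was 1.06-fold over the collagen gene Col3a1 in ∆/∆ tumour 3 and 1.41-fold over Fn1 in ∆/∆ tumour 5. In the wt/wt tumours that lead was 1.42-fold to 1.76-fold, over mt-Co1, Fn1, Col1a1 or the acinar protease gene Ctrb1. The 5 wt/wt tumours thus shared Clu as their top gene, and the ∆/∆ tumours had no common leader.

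**Figure D2:**
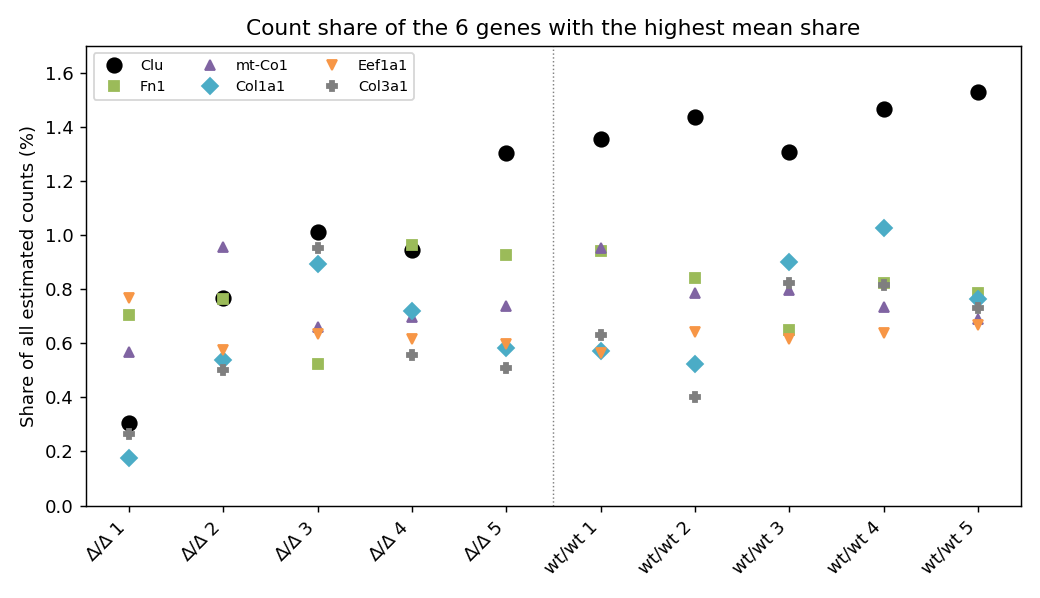
Share of all estimated counts (percent, linear axis) taken by the 6 genes with the highest mean share, in each of the 10 tumours. Clu (black circles) lies above the other 5 genes in every wt/wt tumour and in ∆/∆ tumours 3 and 5, and lies near the bottom in ∆/∆ tumour 1 at 0.306%.

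Since a long transcript gives more fragments than a short one, levels were also set per length, as counts per base of the longest annotated transcript scaled to a common total per library. On that scale Clu had 4356, 10513, 13893, 13640 and 17940 length-scaled units in ∆/∆ tumours 1 to 5. In wt/wt tumours 1 to 5 it had 18469, 20070, 17874, 20503 and 20311 units. It came first in 2 of 5 ∆/∆ tumours and in 4 of 5 wt/wt tumours. Ctrb1, a chymotrypsinogen made by acinar cells, lay ahead in ∆/∆ tumour 5 and wt/wt tumour 5, mt-Co1 in ∆/∆ tumour 2, and Spp1, the gene of osteopontin, in ∆/∆ tumour 1. The mean over the 10 tumours was highest for Clu at 15757 units, followed by mt-Co1 at 12275, Eef1a1 at 8824 and mt-Co2 at 8361. An rRNA gene, CT010467.1, and a mitochondrial-like pseudogene, Gm10925, followed at 6981 and 6835 units, and values of such copies are uncertain. Next came Ctrb1 at 6558, Apoe, the gene of apolipoprotein E, at 6091, Spp1 at 5318 and Tmsb4x, the gene of an actin-binding peptide, at 4755 units. First place depended on the length used: with all exons of all transcripts joined (3437 bases for Clu), Clu came first in 0 of 10 tumours, at ranks 3 to 27 in ∆/∆ tumours and 2 or 3 in wt/wt tumours.

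Among the 100 genes with the most counts, Clu was one of the more variable in the ∆/∆ tumours and one of the steadier in the wt/wt tumours. The SD of its log2 CPM was 0.78 over the ∆/∆ tumours, where 83 of the 100 genes had a smaller SD and the median was 0.33. Over the wt/wt tumours the SD was 0.11, where 18 of the 100 genes had a smaller SD and the median was 0.18. Without ∆/∆ tumour 1 the SD of Clu in the ∆/∆ group was 0.31.

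The design asks whether the groups differ. Every ∆/∆ tumour lay below every wt/wt tumour in Clu, and the difference did not pass the test across genes. The log2 fold change, ∆/∆ over wt/wt, was -0.72 (SE 0.30), which is a level 1.65-fold higher in wt/wt tumours. In edgeR's quasi-likelihood test the p was 0.0345 before and 0.759 after Benjamini-Hochberg adjustment over 16565 genes. That test called 0% of genes, none reaching an adjusted p below 0.759. Before adjustment, at a p under 0.05, 408 genes (2.46%) were lower and 575 (3.47%) higher in ∆/∆ tumours, and Clu was 650th by p. DESeq2 called 7 genes, with an adjusted p of 0.838 for Clu, and limma-voom called 0. An exact two-sided permutation test of Clu alone gave p = 0.00794, the smallest that 5 against 5 tumours allow. Clu was chosen with results of these data known, and that p carries no correction for the other genes.

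The separation rested on a narrow gap. ∆/∆ tumour 5 and wt/wt tumour 3 differed by 0.0083 on the log2 scale. The gap was 0.0037 with total-count scaling and 0.011 in the deposited log2 values. Of all tested genes, 72 (0.435%) had every ∆/∆ tumour below every wt/wt tumour and 82 (0.495%) the reverse. Leaving out ∆/∆ tumour 1 gave a log2 fold change of -0.51 (SE 0.14, adjusted p = 0.910 in edgeR's quasi-likelihood test), and leaving out ∆/∆ tumours 1 and 2 together gave -0.40 (SE 0.13, adjusted p = 0.998). The size moved by more than 1.5 times without both tumours. The sign could not turn, as the groups did not overlap.

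Titles also carry a tumour ID number whose meaning the labels do not give, and 3 of those numbers hold tumours of both groups. Clu was 0.79 lower on the log2 scale in ∆/∆ tumour 2 than in wt/wt tumour 1 under number 36. Under number 38 it was 0.46 lower in ∆/∆ tumour 3 than in the mean of wt/wt tumours 2 and 3, and under number 40 it was 0.23 lower in ∆/∆ tumour 5 than in that of wt/wt tumours 4 and 5. Since every ∆/∆ tumour lay below every wt/wt tumour, these differences could take no other direction.

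Epithelial transcripts were present in every tumour, and their summed level was lowest in ∆/∆ tumour 1, where Clu was lowest. The epithelial list held 14 genes, none of them at 0 in all tumours, and its summed level ran from 2213 to 6075 CPM in ∆/∆ tumours and from 5664 to 6992 CPM in wt/wt tumours. Of the 14 genes 12 were lowest in ∆/∆ tumour 1, the exceptions being Sox9, a transcription factor of duct cells, lowest in wt/wt tumour 1, and Lcn2, the gene of lipocalin 2, lowest in ∆/∆ tumour 2. In bulk samples, fewer cells of a type and less RNA per cell cannot be told apart. Of the 14 genes, 12 were lower in ∆/∆ tumours, with a median log2 fold change of -0.42 beside 0.03 over all tested genes, and none passed the test. Epcam, an epithelial adhesion molecule, had 172.1, 559.3, 382.2, 441.1 and 531.6 CPM in ∆/∆ tumours 1 to 5, against 534.3, 572.1, 531.7, 605.2 and 560.4 CPM in wt/wt tumours 1 to 5. It was low in ∆/∆ tumour 1 and the groups overlapped. With the mean log2 CPM of the 14 genes as a covariate, the log2 fold change of Clu was -0.26 (SE 0.14, adjusted p = 0.957 in edgeR's quasi-likelihood test), a term chosen after the data were seen.

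Clu was also set against the same 14 genes within each tumour. Its log2 CPM exceeded their mean by 5.02, 5.00, 5.50, 5.39 and 5.58 in ∆/∆ tumours 1 to 5 and by 5.78, 5.66, 5.56, 5.57 and 5.81 in wt/wt tumours 1 to 5. The means of these differences were 5.30 ± 0.27 in ∆/∆ tumours and 5.68 ± 0.12 in wt/wt tumours (SD, n = 5 each), and 4 of 5 ∆/∆ tumours lay below the lowest wt/wt tumour. The gap between group means was -0.38 on the log2 scale and -0.31 without ∆/∆ tumour 1. It was -0.32 relative to Epcam alone and -0.29 relative to Cdh1 (E-cadherin), again with 4 of 5 ∆/∆ tumours below the lowest wt/wt tumour. It was -0.40 relative to Krt8 and -0.42 relative to Krt19, which both encode keratins of simple epithelia, with 2 of 5 and 3 of 5 ∆/∆ tumours below the lowest wt/wt tumour. The groups overlapped on each of these measures. These are descriptions, and the cells that made either transcript were not identified.

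The genes that varied with Clu were sought by Pearson's r of log2 CPM over the 10 tumours, computed for 16564 genes, with a two-sided permutation p from 100000 resamples and Benjamini-Hochberg adjustment over those genes. The test called 27 genes (0.163%), of which 22 (0.133%) had a positive and 5 (0.0302%) a negative r. Over all tested genes the median r was -0.01, and 4975 genes had an unadjusted p under 0.05. The edgeR group test called 0 of 16565 genes, so it could not set these 27 apart.

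Among named genes of at least 10 CPM, those with the highest r were Slc12a2, Arhgef10l, Ccr2, Marveld2, Vill, Gprc5c, Wdr72, Grb7, Shisa4 and Shtn1, with r from 0.97 to 0.99. The first 9 passed the test and Shtn1 did not (adjusted permutation p = 0.0716). Slc12a2, which encodes the sodium, potassium and chloride cotransporter of secretory epithelia, had 150.4, 284.9, 325.8, 331.7 and 388.1 CPM in ∆/∆ tumours 1 to 5, against 363.0, 417.4, 401.7, 389.0 and 470.0 CPM in wt/wt tumours 1 to 5. It was lowest in ∆/∆ tumour 1, as Clu was, and highest in wt/wt tumour 5, as Clu was. Its r was 0.99 (permutation p = 2e-05, adjusted 0.0301) and its Spearman's rho 0.90 (permutation p = 0.0007, adjusted 0.241). Without the 2 tumours farthest from the median Clu level, ∆/∆ tumours 1 and 2, r was 0.88.

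Ccr2 is the chemokine receptor of inflammatory monocytes. It had 9.61, 35.6, 68.8, 56.4 and 113 CPM in ∆/∆ tumours 1 to 5, against 124, 102, 130, 158 and 212 CPM in wt/wt tumours 1 to 5. The span of Ccr2 was wider than that of Clu, and wt/wt tumour 2 lay below ∆/∆ tumour 5. Its r was 0.98 (permutation p = 1e-05, the smallest that the resamples can give; adjusted 0.0301), its rho 0.92 (permutation p = 0.00053, adjusted 0.241), and r without ∆/∆ tumours 1 and 2 was 0.94. Marveld2, which encodes tricellulin of epithelial tight junctions, had 8.90 to 29.5 CPM in ∆/∆ tumours and 26.3 to 36.6 CPM in wt/wt tumours. Its r was 0.98, and 0.93 without those 2 tumours. Grb7, an adaptor protein that binds receptor tyrosine kinases, had 12.4 to 51.6 CPM in ∆/∆ tumours and 44.9 to 57.5 CPM in wt/wt tumours, with r of 0.98 and 0.94 on the same comparison. Vill encodes a villin-like protein, and Gprc5c is an orphan receptor of the retinoic acid-inducible group. Vill had 21.0 to 87.2 CPM in ∆/∆ tumours and 75.8 to 107.3 CPM in wt/wt tumours.

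The other genes called with a positive r were Tc2n, Cyp39a1, Tm9sf3, Fam129a, Card9, Adgrg1, Nlrx1, Trf, Myo5c, Nipal2, Slc26a9, Mob3b and 9330160F10Rik. Tm9sf3, Nlrx1 and Mob3b did not pass when every order of the Clu values was enumerated (adjusted exact permutation p = 0.0525 each). Slc26a9 encodes an epithelial chloride transporter, Trf is transferrin, Myo5c is a myosin of secretory epithelia, Cyp39a1 is an oxysterol hydroxylase, Card9 is an adaptor of myeloid pattern recognition and Adgrg1 is an adhesion receptor. Their r ran from 0.85 for Nlrx1 to 0.97 for Tc2n. Of 26 called genes looked up in the annotation, 7 share exon bases with another annotated gene, Trf the most, and their counts may hold reads of it.

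**Figure D3:**
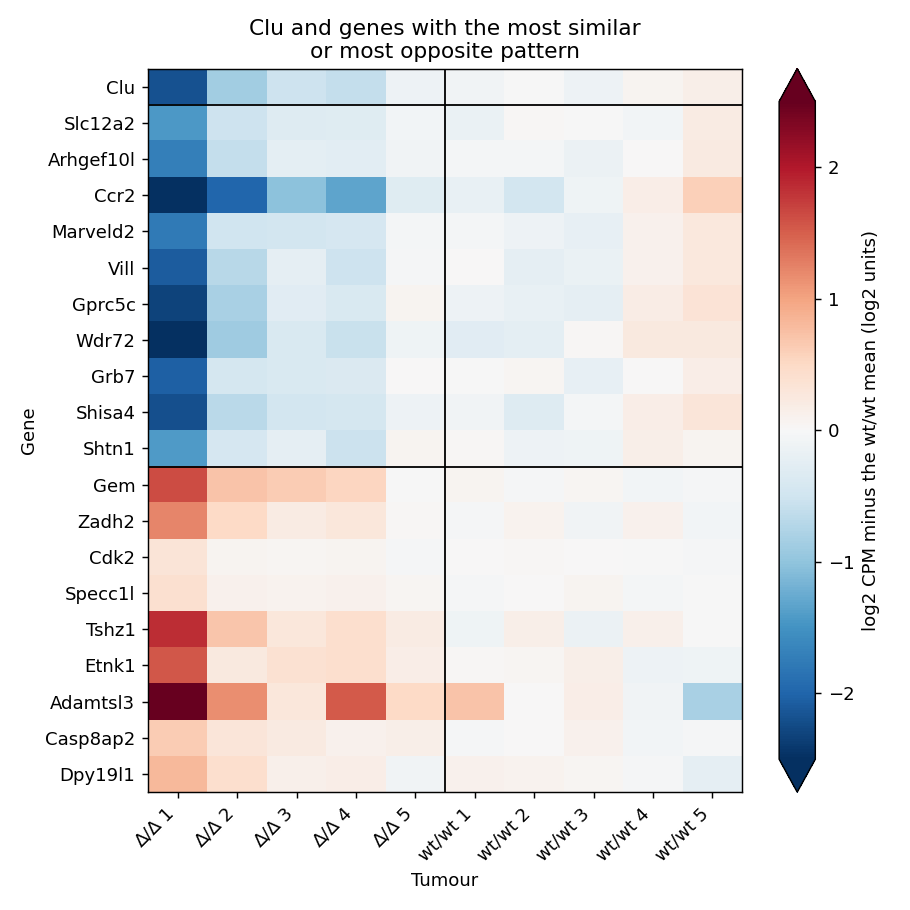
Log2 CPM minus the mean of the 5 wt/wt tumours for Clu, the 10 named genes with the highest r (upper block) and 9 of those with the lowest r (lower block), by tumour, on a colour scale that is saturated beyond ±2.5 log2 units. The genes of the upper block are lowest in ∆/∆ tumour 1 and those of the lower block are highest there, and the other 9 tumours differ less.

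Among the 10 lowest r of named genes were those of Gem, Zadh2, Cdk2, Specc1l, Tshz1, Etnk1, Adamtsl3, Casp8ap2 and Dpy19l1, from -0.98 to -0.95. Of these, Gem and Specc1l passed the test, as did Tiparp, a mono-ADP-ribosyltransferase (r = -0.90), and the unnamed transcript C030037D09Rik (r = -0.90). Dpy19l1 passed when every order of the Clu values was enumerated (adjusted exact permutation p = 0.0493). Gem, a small GTPase that dampens calcium channels, had 25, 13.3, 12.6, 11.7 and 7.96 CPM in ∆/∆ tumours 1 to 5, against 8.41, 7.83, 8.34, 7.63 and 7.86 CPM in wt/wt tumours 1 to 5. It was high in ∆/∆ tumours 1 to 4, and ∆/∆ tumour 5 lay within the wt/wt range. Its r was -0.98 (permutation p = 6e-05, adjusted 0.0452), its rho -0.90 (permutation p = 0.00081, adjusted 0.241), and r without ∆/∆ tumours 1 and 2 was -0.95.

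Tiparp, the ribosyltransferase, had 58.8, 49.8, 31.4, 39.7 and 29.9 CPM in ∆/∆ tumours 1 to 5, against 23.0, 29.7, 26.7, 26.5 and 20.6 CPM in wt/wt tumours 1 to 5. Every ∆/∆ tumour lay above every wt/wt tumour, as 0.495% of all genes did, though ∆/∆ tumour 5 and wt/wt tumour 2 nearly met. Its r was -0.90 (permutation p = 2e-05, adjusted 0.0301), its rho -0.94 (permutation p = 0.00022, adjusted 0.238), and r without ∆/∆ tumours 1 and 2 was -0.82. The log2 fold change of Tiparp was 0.73 (SE 0.20) and did not pass the group test. Cdk2, a cell cycle kinase, varied little in size: 38.6 to 49.4 CPM in ∆/∆ tumours and 38.21 to 40.08 CPM in wt/wt tumours. Adamtsl3, a gene of the ADAMTS-like matrix proteins, had 4.19 to 99.7 CPM in ∆/∆ tumours and 1.92 to 5.74 CPM in wt/wt tumours, with the high value in ∆/∆ tumour 1.

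The number of calls depended on the tumours and the measure used. Without ∆/∆ tumour 1, the permutation test called 0 genes, with 1556 at an unadjusted p under 0.05 and a lowest adjusted p of 0.166. A lone gene at the smallest p of the resamples, 1e-05, gets that adjusted p, so 0 calls need not mean a low r. There r of the 10 highest genes ran from 0.87 to 0.97 and that of the 10 lowest from -0.96 to -0.79. Without ∆/∆ tumours 1 and 2 together the permutation test called 0, with 952 at an unadjusted p under 0.05. Fewer tumours also leave fewer orders to resample. Leaving out wt/wt tumour 2 gave 180 calls, ∆/∆ tumour 3 gave 117 and wt/wt tumour 1 gave 4, and leaving out any 1 of the other 7 tumours gave 0. Spearman's rho called 0 of 16564 genes, with 1908 at an unadjusted p under 0.05 and again a lowest adjusted p of 0.166. With values centred on each group's mean and permuted within groups, 0 genes were called and 2251 had an unadjusted p under 0.05. The lowest adjusted permutation p was 0.301. Permuting within groups of 5 leaves far fewer orders, which limits how small p can be, so this 0 decides nothing. After centring, r of the 10 highest genes ran from 0.975 to 0.998 and that of the 10 lowest from -0.998 to -0.946. Centring kept ∆/∆ tumour 1, so these values can still rest on it. The SD of log2 CPM of Clu in the ∆/∆ group was 0.78 with that tumour and 0.31 without it. The order of the nearest genes moved too: of the 10 highest, 5 remained among the 10 highest without ∆/∆ tumour 1 (Slc12a2, Arhgef10l, Ccr2, Marveld2 and Grb7), and of the 10 lowest only Gem did. Without ∆/∆ tumours 1 and 2, Ccr2, Marveld2 and Grb7 remained among the 10 highest and Gem and Etnk1 among the 10 lowest.

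**Figure D4:**
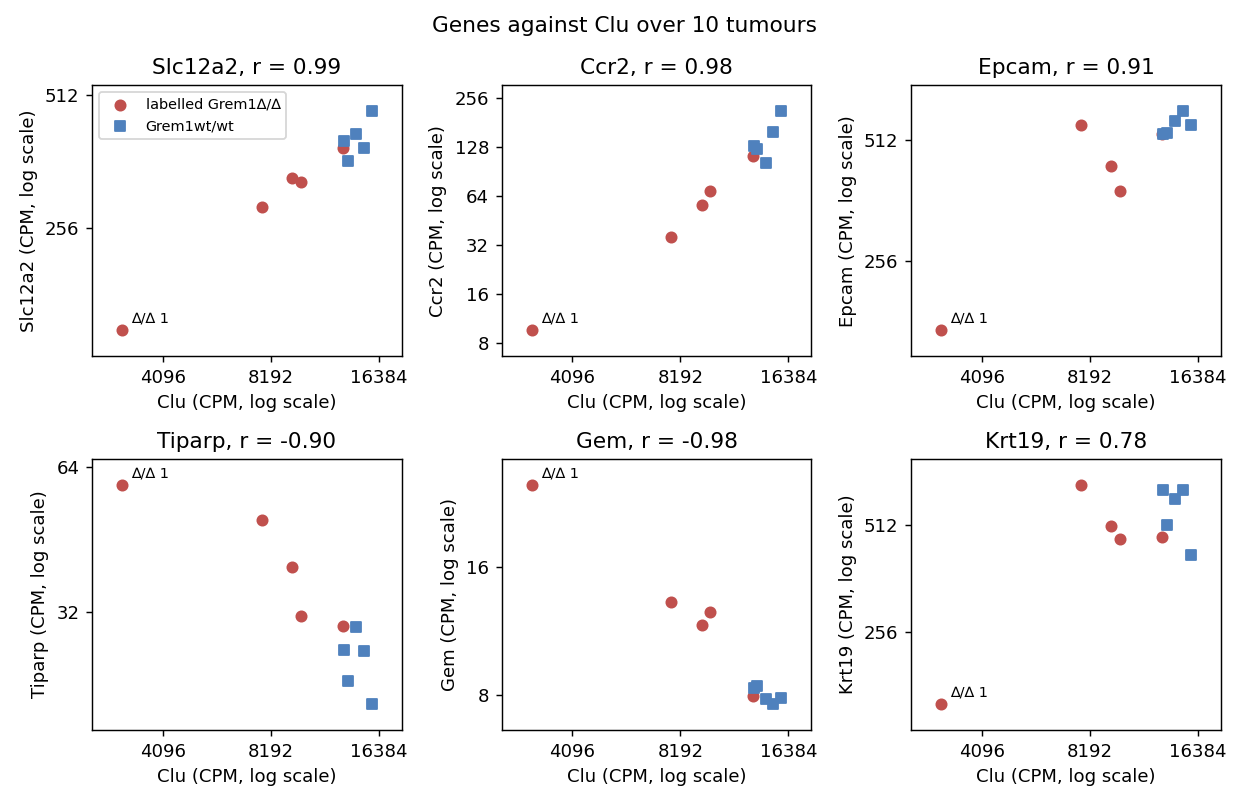
CPM of 6 genes against CPM of Clu in the 10 tumours (log scale on both axes, circles for tumours labelled Grem1∆/∆, squares for Grem1wt/wt), with Pearson's r of log2 CPM above each panel. Slc12a2 and Ccr2 (r of 0.99 and 0.98) lie along a rising line and Tiparp and Gem (-0.90 and -0.98) along a falling one, while Krt19 is low in ∆/∆ tumour 1 and has r = -0.19 over the other 9 tumours.

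Cell type lists were then set beside Clu; no member of any list described here was called, and their counts and medians are descriptions. Of 14 epithelial genes, 13 had a positive r with Clu, with a median r of 0.88 beside -0.01 over all tested genes. Without ∆/∆ tumour 1 the count was 10 and the median 0.58, and without ∆/∆ tumours 1 and 2 the count was 12 and the median 0.72. Cdh1 had the highest r at 0.96 (adjusted permutation p = 0.0734), with 177.1, 477.3, 408.2, 402.9 and 608.3 CPM in ∆/∆ tumours 1 to 5, against 543.4, 520.4, 551.2, 636.6 and 623.2 CPM in wt/wt tumours 1 to 5. Krt7, a duct keratin, had r = 0.94, Spint2, a protease inhibitor, 0.93, and Muc1, a membrane mucin, 0.93. Krt19 had r = 0.78, which was -0.19 without ∆/∆ tumour 1. Epithelial genes thus did not all track Clu once that tumour was set aside.

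Macrophage genes also had a positive r with Clu, though none was called. Over the 12 genes r ran from 0.04 to 0.91 with a median of 0.68. Of all tested genes, 49.3% had a positive r. All 12 were positive without ∆/∆ tumour 1 as well, with a median of 0.62. Without ∆/∆ tumours 1 and 2 it was 11 of 12, with a median of 0.45. The difference between this list and the epithelial list was not tested. The summed level of the macrophage genes ran from 1866 to 4971 CPM in ∆/∆ tumours and from 3502 to 6071 CPM in wt/wt tumours. All 12 were lower in ∆/∆ tumours, as were 7444 of 16565 tested genes. Their median log2 fold change was -0.45, beside 0.03 over all tested genes. Csf1r, the receptor for macrophage colony-stimulating factor, had r = 0.91, Lyz2, a lysozyme of myeloid cells, 0.90, Cd14 0.85 and Adgre1, the F4/80 antigen, 0.79. Their part in the Clu difference was not tested. The pan-leukocyte gene Ptprc had r = 0.68. Without ∆/∆ tumours 1 and 2, r was 0.38 for Lyz2 and 0.11 for Ptprc.

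Lists of other cell types followed Clu to differing degrees. All 8 blood endothelial genes had a positive r with a median of 0.80, led by Emcn (endomucin) at 0.84. That median was 0.35 without ∆/∆ tumour 1 and 0.07 without ∆/∆ tumours 1 and 2. Fibroblast genes had a positive r in 9 of 12, with a median of 0.64 that was 0.18 without ∆/∆ tumour 1. Without ∆/∆ tumours 1 and 2 it was 3 of 12, with a median of -0.13. Col1a1, a collagen chain, had r = 0.82. All 13 acinar genes had a positive r with and without that tumour (median 0.36 both times) and without ∆/∆ tumours 1 and 2 (median 0.12), and Cpa1, a carboxypeptidase, had r = 0.36. Among islet genes 8 of 8 were positive with a median of 0.68, which was 0.10 without ∆/∆ tumour 1. Of 8 mesothelial genes 7 had a positive r (median 0.42), and 0 of 8 did so without ∆/∆ tumour 1 (median -0.39). The B cell list (6 of 8, median 0.22) and the T and NK cell list (7 of 8, median 0.28) had medians of -0.18 and -0.16 without that tumour.

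**Figure D5:**
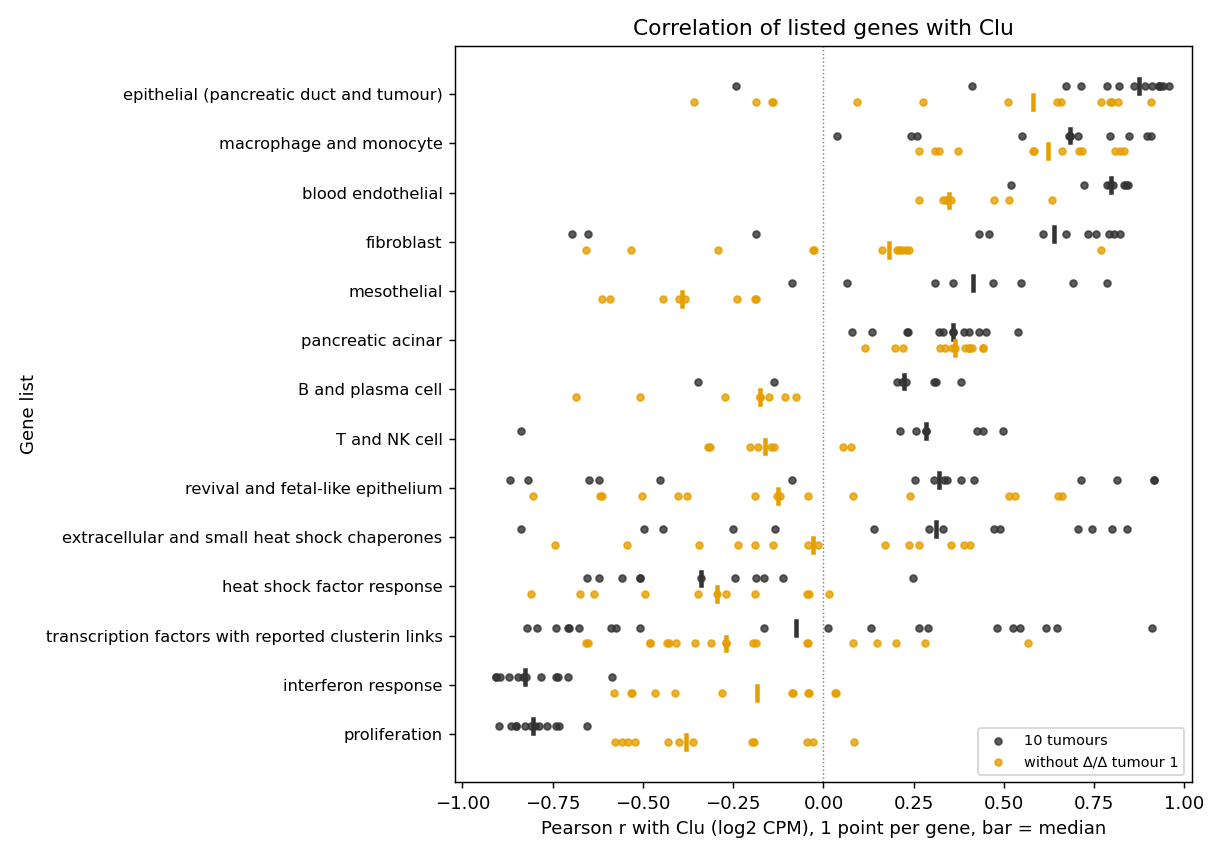
Pearson's r with Clu for the genes of 14 lists (1 point per gene, bar at the median), over the 10 tumours in black and without ∆/∆ tumour 1 in orange. The epithelial medians are 0.88 and 0.58 and the macrophage medians 0.68 and 0.62, while the medians of most other lists lie nearer to 0 without that tumour.

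The genes of proteins that handle clusterin were not called with Clu. Of 8 listed receptors and uptake proteins, 6 had enough counts to be tested and 5 of those had a positive r (median 0.29). Without ∆/∆ tumour 1 it was 3 of the 6, with a median of 0.09. Lrp8, the ApoE receptor that binds clusterin, had the strongest relation. It had 24.9, 16.1, 12.6, 11.4 and 14 CPM in ∆/∆ tumours 1 to 5, against 11.2, 10.02, 9.83, 8.36 and 9.07 CPM in wt/wt tumours 1 to 5, so that every ∆/∆ tumour lay above every wt/wt tumour, as for 0.495% of all genes. Its r was -0.92 (adjusted permutation p = 0.0734) and its log2 fold change 0.70 (SE 0.21), and neither passed the test. Lrp1, a large endocytic receptor, was abundant at 926 to 1632 CPM in ∆/∆ tumours and 809 to 1478 CPM in wt/wt tumours, and its r was 0.11. Trem2, a receptor of macrophages that binds clusterin, had r = 0.53, Dab2, an endocytic adaptor, 0.37, Vldlr 0.30 and the receptor-associated chaperone Lrpap1 0.29. Megalin, encoded by Lrp2 and the main epithelial receptor for clusterin, was near the floor at 0.267 to 4.02 CPM in ∆/∆ tumours and 0.157 to 0.807 CPM in wt/wt tumours. Dab1, an adaptor of neurons, had 0.178 to 5.25 CPM in ∆/∆ tumours and 0.330 to 0.943 CPM in wt/wt tumours.

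Transcripts of the terminal complement components that clusterin binds were mostly low in these tumours, and the proteins were not measured. C6 had 2.49 to 20.7 CPM in ∆/∆ tumours and 7.10 to 11.5 CPM in wt/wt tumours (r = 0.60), and C7 had 0.534 to 49.9 CPM in ∆/∆ tumours and 1.022 to 19.2 CPM in wt/wt tumours (r = 0.48). Without ∆/∆ tumour 1 neither r was positive (median -0.30), and without ∆/∆ tumours 1 and 2 the median was -0.55. C8a and C9 had no counts in any tumour other than wt/wt 1, with 0.236 and 0.393 CPM there. C8b stayed at or below 0.493 CPM and C8g at or below 0.789 CPM in every tumour. The other fluid-phase or membrane inhibitors of that complex, Vtn (vitronectin) and Cd59a, had r of 0.68 and 0.58. Their median of 0.63 was 0.38 without ∆/∆ tumour 1 and 0.10 without ∆/∆ tumours 1 and 2. Cd59b stayed at or below 0.786 CPM. C5 and Clul1 were not analysed here.

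Apolipoprotein genes were mixed. Of 16 listed genes 9 were tested, and 7 of those had a positive r (median 0.28, and -0.23 without ∆/∆ tumour 1). Apoe, which like Clu was among the most abundant genes per length, had 1507, 2314, 3635, 3531 and 3590 CPM in ∆/∆ tumours 1 to 5, against 4293, 4655, 2326, 4813 and 3636 CPM in wt/wt tumours 1 to 5. Its r was 0.83 and its rho 0.84. Apod, a lipocalin, had r = -0.80, at 8.61 to 69.8 CPM in ∆/∆ tumours and 2.04 to 14.8 CPM in wt/wt tumours. Pltp, the phospholipid transfer protein, had r = 0.70 and the lipid exporter Abcg1 0.47.

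Chaperone genes had no common sign of r with Clu. Of 14 extracellular and small heat shock chaperones, 9 had a positive r (median 0.31, and -0.03 without ∆/∆ tumour 1). The small heat shock genes Hspb8 and Cryab had r = 0.84 and 0.75, Hspb6 had r = -0.84, and Sparc, a secreted collagen-binding protein, had r = 0.80. Of 11 heat shock factor response genes, only Hsph1 had a positive r, the median was -0.34, and all 11 were higher in ∆/∆ tumours although none passed the group test. The largest in size were Hspd1 (r = -0.66), Bag3 (-0.62), Hspe1 (-0.56) and Hspa1a (-0.51), whose reads can be split with Hspa1b. Of 10 apoptosis genes with reported clusterin links 8 had a positive r (median 0.23), among them Pmaip1 (Noxa) at 0.70 and Bax, whose product clusterin is reported to bind in human cells, at 0.61.

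Transcription factors reported to act on Clu were split over the 10 tumours, with 10 positive and 10 negative r among 20 genes (median -0.08). Without ∆/∆ tumour 1, 5 of the 20 had a positive r (median -0.27). Without ∆/∆ tumours 1 and 2 it was again 5, with a median of -0.29. None of the 20 genes was called. Mycn had r = 0.91, at 4.72 to 19.0 CPM in ∆/∆ tumours and 15.5 to 25.6 CPM in wt/wt tumours, Jun had r = -0.82 and Twist1 -0.79. Hsf1, the main heat shock factor, had r = -0.51. Of these 20 genes 16 were higher in ∆/∆ tumours, with a median log2 fold change of 0.13, and none passed the group test.

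Genes of the injury and revival states that Clu is known to mark did not follow it as a group. Of 16 revival and fetal-like genes, 10 had a positive r, with a median of 0.32 that was -0.12 without ∆/∆ tumour 1. Anxa3 and Cxadr had r = 0.92, whereas Anxa5 had r = -0.87 and Ereg, an EGF receptor ligand, -0.82. Of 10 YAP/TEAD targets, 9 had a positive r, with a median of 0.51 that was -0.06 without that tumour. Ajuba had r = 0.82 and Axl r = -0.79. Of 15 genes of acinar-to-ductal change and pancreatic injury, 11 had a positive r (median 0.42, and 0.05 without that tumour), and Agr2 had r = 0.86 and Onecut2 r = 0.83. Spp1 had r = -0.85, at 2052 to 7243 CPM in ∆/∆ tumours and 2253 to 2972 CPM in wt/wt tumours, with the high value in ∆/∆ tumour 1. Of 12 secreted injury and acute phase genes, 8 had a positive r (median 0.27), and complement C3 and haptoglobin, encoded by Hp, both had r = 0.71. Without ∆/∆ tumour 1, 4 of those 12 had a positive r (median -0.04).

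Interferon response and proliferation genes were highest in ∆/∆ tumour 1, where Clu was lowest. All 12 interferon genes had a negative r with a median of -0.83. Their summed level was 2855, 309.3, 366.5, 143.6 and 223.3 CPM in ∆/∆ tumours 1 to 5, against 312.3, 83.7, 272.8, 233.0 and 242.5 CPM in wt/wt tumours 1 to 5. Only ∆/∆ tumours 1 and 3 lay above the wt/wt range, and the median log2 fold change of 1.76 over these genes includes ∆/∆ tumour 1. Ifit1 had 265 CPM in ∆/∆ tumour 1 and at most 21.5 CPM in any other tumour, and without ∆/∆ tumour 1 the list median was -0.19. All 12 proliferation genes had a negative r with a median of -0.80, led by Foxm1 at -0.90. Their summed level was 1376, 736.6, 431.4, 441.0 and 442.9 CPM in ∆/∆ tumours 1 to 5, against 459.1, 444.7, 646.5, 463.2 and 540.0 CPM in wt/wt tumours 1 to 5. That sum was high in ∆/∆ tumours 1 and 2 and slightly below every wt/wt tumour in ∆/∆ tumours 3, 4 and 5. By mean log2 CPM of the 12 genes relative to the wt/wt mean, ∆/∆ tumour 4 (-0.127) was not below wt/wt tumours 1 (-0.128) and 4 (-0.160). All 12 had a positive log2 fold change (median 0.47), which includes ∆/∆ tumours 1 and 2, and none passed the group test. Without ∆/∆ tumour 1 the median r was -0.38, and without ∆/∆ tumours 1 and 2 it was 0.26 with the opposite sign. The 10 housekeeping genes had a median r of -0.48, which was 0.11 without ∆/∆ tumour 1. Among them Gapdh had r = -0.82, and -0.56 without ∆/∆ tumour 1. Eef1a1 had r = -0.58, which turned to 0.50 without that tumour.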

How the data were processed

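Clu and the 30 gene lists were chosen with earlier results of these data known. Estimated counts of all genes in the 10 libraries were deposited by the authors as 1 table. The authors' other deposited files, 1 per tumour, hold normalized log2 values of 25407 genes (-1.29 to 17.5). The submitters' processing notes name RSEM 1.3.3, HISAT2 2.2.1, FastQC 0.11.9, bcl2fastq 2.0, DESeq2 1.32.0 and the build mm10. Annotation release and strand setting were not given in the sources used here. Libraries were made with a KAPA mRNA HyperPrep kit and run on a NovaSeq, per the labels' protocols, and labels name no batch.

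Estimated counts (7.96% not whole) were rounded. Totals ran from 10159891 to 18571519 per library. Genes were filtered with filterByExpr (minimum count 10, 16565 kept), scaled by TMM and tested with edgeR 4.0.16 (quasi-likelihood, robust, Benjamini-Hochberg at 0.05) in R 4.3.3. The common biological coefficient of variation was 0.355. SEs came from the F statistic. Log2 CPM had a prior count of 2. Correlations used Python 3.11.15 with 100000 resamples. Lengths and coordinates came from GENCODE M21, where 55141 gene IDs were found. Both procedures were tested on simulated data.

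Named genes were Clu, Grem1, the leaders of each tumour, the 10 highest per length, the 10 highest and 10 lowest r at 10 CPM or more (unnamed models left out), up to 4 members of each list by absolute r, all receptors and complement genes, and 7 markers. Genes called with Clu and ranges of further list members were added after values were seen. Alternatives were DESeq2 1.42.0, limma-voom (limma 3.58.1), other scalings, no filter, other prior counts, centred values, blocks, the deposited log2 values and leaving out tumours. Of the listed and called genes, 2 are not reported here. Clu had no entry in the promoter table used here.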

Additional observations from a re-analysis of the deposited data

Results flagged for a closer look

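In 30 genes named here, each group of 5 tumours was examined for a tumour that stood apart on the log2 CPM scale. The rule was a gap to the nearest neighbour of more than 0.71 of the group's range in log2 CPM. The values below are in CPM, on which that ratio differs. Of the 60 groups 10 met this rule, and in all 10 the tumour was ∆/∆ tumour 1. Chance gives about 1 in 20 of independent groups, but 19 of the genes were chosen for their r with Clu, which is lowest in that tumour, so the count is a description and is not to be read against that rate. Clu itself was not among them. Among genes that vary with Clu in the same direction, ∆/∆ tumour 1 was low in Marveld2 (8.90 CPM, the other ∆/∆ tumours 21.6 to 29.5), Wdr72 (1.601 CPM, the others 7.17 to 12.4), Grb7 (12.4 CPM, the others 37.8 to 51.6) and Shisa4 (3.74 CPM, the others 10.999 to 16.04). The keratin gene Krt19 was also low there, at 160.8 CPM against 469.9 to 666.1 in the other ∆/∆ tumours. ∆/∆ tumour 1 was high in Cdk2 (49.4 CPM, the others 38.6 to 41.4), Specc1l (96.4 CPM, the others 76.4 to 79.5), Etnk1 (341.7 CPM, the others 130.2 to 155.5) and Adamtsl3 (99.7 CPM, the others 4.19 to 10.1). Eef1a1, which led the counts of that tumour, had 7898 CPM there and 5804 to 6237 in the other ∆/∆ tumours.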

How the results depend on the processing

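The log2 fold change of Clu was negative and did not pass the test in any of 22 settings, with adjusted p from 0.499 to 1.00. Without each tumour in turn it ran from -0.92 (without ∆/∆ tumour 5) to -0.51 (without ∆/∆ tumour 1). With replicate number as a block it was -0.85, with no gene called. Whether the replicate numbers pair tumours was not settled, as 5 pairs are too few. Correlations of same-numbered deviations ran from -0.02 to 0.39. They were highest for numbers 3 and 5, whose tumours also share a tumour ID number. Of 5 ∆/∆ tumours, 2 correlated best with the wt/wt tumour of their own number. A block by tumour ID number, added after the data were seen, gave -0.46. Between groups DESeq2 called 7 genes, and each other setting called 0. The median over all genes of the difference in mean log2 CPM was at most 0.016 with TMM, RLE or no scaling. Clu came first by counts in 7 of 10 tumours, in 6 per longest transcript, in 8 by deposited values and in 0 per union of exons (3437 in place of 1810 bases for Clu).

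Genes called with Clu numbered 27. Spearman's rho gave 0, total-count scaling 7, centring on group means 0, and leaving out ∆/∆ tumours 1 and 2 gave 0. A 0 need not mean a low r, as the resamples and the number of orders limit how small p can be. Without each tumour in turn the count ran from 0 to 180. It was 180 without wt/wt tumour 2, 117 without ∆/∆ tumour 3, 4 without wt/wt tumour 1 and 0 without any of the other 7. RLE scaling gave 33, a prior count of 0.5 gave 27 and of 10 gave 25, and deposited values gave 30. Exact enumeration of 3628800 orders, added later, gave 25, of which 24 were among the 27. The cause was not tested. Each gene followed was counted once per setting. Of these gene-by-setting results, 308 no longer passed, 9 newly passed, 497 were unchanged in this and 3 changed sign. Of the genes followed through these settings, the sign changed in 3 that were not called: Krt19 (-0.19 without ∆/∆ tumour 1, and up to 0.90 without each other tumour in turn), and Col1a1 (-0.0585) and Grem1 (0.12) without ∆/∆ tumours 1 and 2. Genes outside that set also changed sign without ∆/∆ tumour 1, among them Eef1a1 (0.50), Elf3 (-0.36), Cldn7 (-0.14), mt-Co1 (-0.18) and mt-Co2 (-0.48). Counting error, which leaves out library preparation and read assignment, was at most 0.531% of a Clu value.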
